A study of Bos taurus with 13 samples.

Results

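bta-miR-192, bta-miR-194 and bta-miR-215 were followed in extracellular vesicles (EVs) of bovine follicular fluid, the liquid that surrounds the oocyte in its follicle. The members were chosen by name. They were 3 of the 311 miRNAs listed for any group and 3 of the 262 listed for every group, and all 3 passed the filter on low reads in every comparison. They had been proposed with the levels of all 13 libraries in view, so their levels and differences are given here as a description, without p-values.

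The study asked how the energy balance of dairy cows after calving goes with the miRNAs that EVs carry in the follicle. Fluid was drawn by ovum pick-up from large follicles of Holstein Friesian animals and combined into 13 pools, and each pool gave 1 small RNA library. Transient cows (TCs), labelled early negative, gave 3 pools from 11 cows at weeks 5 and 6 after calving, and TCs labelled late positive gave 3 pools from 7 cows at weeks 9 and 10. Always negative cows (ANCs) and always positive cows (APCs) gave 2 pools each at weeks 5 and 6, from 2 cows per group. Heifers, which have not calved, gave 3 pools from 8 animals, all in positive energy balance. Which animals went into which pool is not given in the sources used here, so the pools were taken as the replicates and the errors describe the spread between pools. Whether cows of the earlier TC pools also gave fluid to the later ones is not given either.

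Both clusters that hold these miRNAs are best known from the epithelium of liver, gut and kidney, where the hepatocyte nuclear factors HNF1 and HNF4 drive them. They are also targets of p53, the transcription factor that halts the cell cycle when DNA is damaged, and miR-192 and miR-215 add to that arrest. miR-192 and miR-215 share a seed, the stretch of a miRNA that pairs with its target mRNAs, whereas miR-194 has another seed and therefore other targets. In the RefSeq annotation of the ARS-UCD2.0 assembly, MIR192 lies within 1 kb of MIR194-2 and inside the span of EHD1. MIR215 lies within 1 kb of MIR194-1 and inside the span of IARS2. Mature miR-194 can come from either cluster, so its reads cannot be assigned to 1 of them. The mature sequences of miR-192 and miR-215 are nearly the same, so the split of reads between these members is uncertain.

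The listed miRNAs of a library summed to 145030 to 421435 reads (median 327359), recovered as whole reads from the deposited values. Reads outside the listed miRNAs are not in these totals, which are therefore not the sequencing depth. Across the libraries, bta-miR-192 had 528 to 6000 reads, bta-miR-194 129 to 1001 and bta-miR-215 166 to 1346. The counting error of a single level was therefore between 1.29% and 8.8%, which covers counting only. Levels are given in CPM, counts scaled to a common library size, with 1 TMM scaling over all 13 libraries, a scaling that trims extreme miRNAs. Because each comparison was scaled on its own 2 groups, its folds can differ slightly from ratios of these levels.

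bta-miR-192 was the most abundant of the members in all 13 pools and ranked between 16 and 60 among the miRNAs of a library. In heifers it was at 15460, 14160 and 5710 CPM in replicates 1 to 3. In TCs at weeks 5 and 6 it was at 13250, 8510 and 9000 CPM. In TCs at weeks 9 and 10 it was at 6851, 8335 and 9390 CPM. The pools of the later weeks lay close together, whereas 1 pool stood apart in each of the other groups of 3: high in TCs at weeks 5 and 6 and low in heifers. In ANCs bta-miR-192 was at 2826 and 7664 CPM, and in APCs at 1967 and 6309 CPM. Both groups thus had 1 pool far below every TC and heifer pool and 1 pool within their range.

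The group means of bta-miR-192 ran from heifers (11780 ± 5294 CPM, SD, n = 3) over TCs at weeks 5 and 6 (10250 ± 2608, n = 3), TCs at weeks 9 and 10 (8192 ± 1276, n = 3) and ANCs (5245 ± 3421, n = 2) to APCs (4138 ± 3070, n = 2). No neighbours in this order differed by more than the larger of their SDs. From the lowest to the highest pool the level spanned 7.86-fold.

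**Figure D1:**
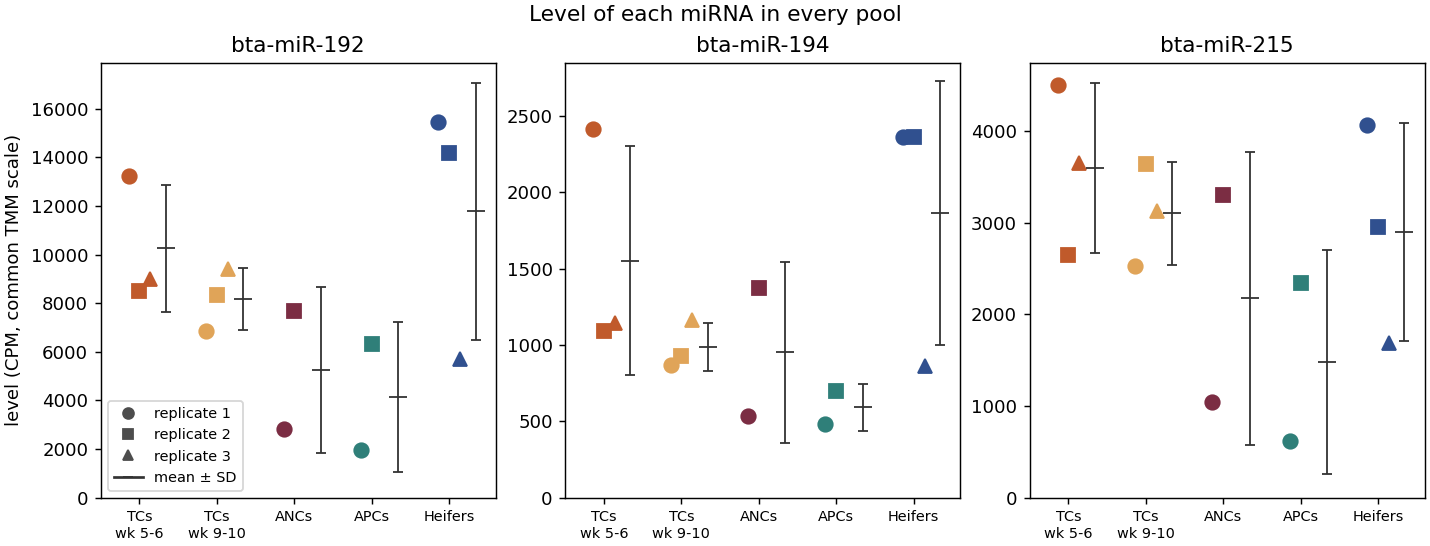
Level of bta-miR-192, bta-miR-194 and bta-miR-215 in each pool, in CPM on 1 TMM scale, by group. Points are pools, shapes are replicate numbers, and the bars show the mean ± SD of a group. The first replicate of ANCs and of APCs holds the lowest levels of bta-miR-192 (2826 and 1967 CPM), and replicate 3 of the heifers (5710 CPM) lies below both other heifer pools.

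bta-miR-194, the member with a seed of its own, was the least abundant and ranked between 60 and 112. In heifers it was at 2363, 2362 and 865.4 CPM. In TCs it was at 2415, 1094 and 1145 CPM at weeks 5 and 6, and at 869.5, 928.8 and 1166 CPM at weeks 9 and 10. Replicates 1 and 2 of the heifers and replicate 1 of the TCs at weeks 5 and 6 stood well above the other pools of all groups. In ANCs bta-miR-194 was at 534.3 and 1371 CPM, and in APCs at 480.6 and 701.4 CPM. Both APC pools were lower than every heifer and TC pool. The means were 1863 ± 864.2 CPM in heifers, 1551 ± 748.7 and 988.0 ± 156.7 CPM in TCs at the earlier and later weeks, 952.6 ± 591.6 CPM in ANCs and 591.0 ± 156.1 CPM in APCs (SD, n as above), and again no neighbours differed by more than the larger SD.

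bta-miR-215, which shares its seed with bta-miR-192, ranked between 45 and 103 and had another order of groups. In TCs it was at 4497, 2644 and 3654 CPM at weeks 5 and 6, and at 2528, 3643 and 3130 CPM at weeks 9 and 10. In heifers it was at 4063, 2949 and 1688 CPM. Here the heifers lay within or below the range of the TCs. In ANCs it was at 1042 and 3303 CPM, and in APCs at 618.5 and 2341 CPM. The means were 3598 ± 927.7 and 3100 ± 557.8 CPM in TCs at the earlier and later weeks, 2900 ± 1188 CPM in heifers, 2173 ± 1599 CPM in ANCs and 1480 ± 1218 CPM in APCs, with no neighbours apart by more than the larger SD.

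The members varied more between pools than most miRNAs of their abundance. The SD of the log2 level over the 13 libraries was 0.85 for bta-miR-192, 0.76 for bta-miR-194 and 0.82 for bta-miR-215. The median of all 247 miRNAs that passed the filter over the 13 libraries was 0.61. Among the 95 of them with a mean of at least 1000 CPM, the members ranked 24, 26 and 25 from the most variable, with a median of 0.55. The spread lay partly inside groups: bta-miR-192 was 2.71 and 2.48 times higher in heifer replicates 1 and 2 than in replicate 3, bta-miR-194 2.73 times in both, and bta-miR-215 2.41 and 1.75 times.

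Compared with heifers, all 3 members were lower in APCs, and bta-miR-194 met the thresholds of the study. These ask for a log2 fold change of 1 or more in either direction, p below 0.05 and a false discovery rate up to 0.25. The study itself, with edgeR on the same libraries, had already listed bta-miR-194 as lower in APCs. Neither bta-miR-192 nor bta-miR-215 was on its list for that comparison. The log2 fold change of APCs against heifers was -1.47 (SE 0.53) for bta-miR-194, -1.55 (SE 0.64) for bta-miR-192 and -1.11 (SE 0.64) for bta-miR-215. The call covered 1 of 3 members, where 12.4% of all 233 miRNAs tested were called and 3.0% were called lower. bta-miR-194 was also the member whose APC and heifer pools did not overlap, as was true of 34.3% of all miRNAs tested. Since these differences were in view when the members were proposed, nothing is read from the counts. Without replicate 1 of the APCs the values came to -1.16 for bta-miR-194, -0.67 for bta-miR-192 and -0.12 for bta-miR-215, and without replicate 2 to -1.75, -2.40 and -2.08. In limma 0 members were called without replicate 1 of the APCs or without replicate 1 or 2 of the heifers, where 20.4%, 2.17% and 9.69% of all miRNAs were called. Against that, 2 were called without replicate 3 of the heifers and 3 without replicate 2 of the APCs, where 20.4% and 19.3% of all were. With total reads in place of TMM, 3 members were called, where 27% of all were (49 lower and 14 higher, against 7 and 22 with TMM), and the median of all miRNAs moved to -0.54.

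Compared with heifers, the ANCs also had lower means of all 3 members. The log2 fold change was -1.20 (SE 0.55) for bta-miR-192, -0.97 (SE 0.56) for bta-miR-194 and -0.54 (SE 0.54) for bta-miR-215. In each case the second ANC pool lay inside the range of the heifers, so 0 members were separate, where 47.9% of all miRNAs tested were. None of the members was called, where 19.1% of the 215 miRNAs tested were. Without replicate 3 of the heifers 2 members were called, where 29.8% of all miRNAs were, and without replicate 2 of the ANCs 1 was, where 21.3% were. Without replicate 1 of the ANCs the values came to -0.54 for bta-miR-192 and -0.35 for bta-miR-194, and that of bta-miR-215 turned to 0.23. Without replicate 2 they came to -1.81, -1.54 and -1.26.

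The TCs differed less from the heifers. At weeks 5 and 6 the log2 fold change was -0.08 (SE 0.43) for bta-miR-192, -0.20 (SE 0.51) for bta-miR-194 and 0.39 (SE 0.38) for bta-miR-215. The values of bta-miR-192 and bta-miR-194 changed sign without replicate 2 or 3 of the TCs and without replicate 1 or 2 of the heifers. No member was called, where 6.52% of 230 miRNAs were, and no member was separate, where 21.7% were. The share called over all miRNAs depended on the fit. It was 14.8% with the replicate number as a block, 19.5% without replicate 2 of the TCs and 12.9% without replicate 3 of the heifers. With the measurement day in the fit, or without replicate 1 or 3 of the TCs or replicate 1 or 2 of the heifers, limma called 0 miRNAs, with 29, 19, 30, 21 and 21 at an unadjusted p-value under 0.05. At weeks 9 and 10 the values were -0.42 (SE 0.45), -0.80 (SE 0.47) and 0.16 (SE 0.40) in the same order, and the last turned to -0.16 without replicate 3 of the heifers. Again no member was called, and none was separate, where 15.4% of all miRNAs were. In that comparison limma called 0.0% of 227 miRNAs, with 23 at an unadjusted p-value under 0.05, edgeR's quasi-likelihood test called 0 and DESeq2 called 14. limma called 9.96% of all miRNAs without replicate 2 of these TCs, 2.64% with total reads and 2.02% with 1 fit over all 5 groups. With the replicate block, the measurement day and replicate 3 of the heifers left out it called 1.32%, 0.881% and 0.858%. No member was among them. All 4 comparisons share the same 3 heifer pools, so they are not independent of each other.

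**Figure D2:**
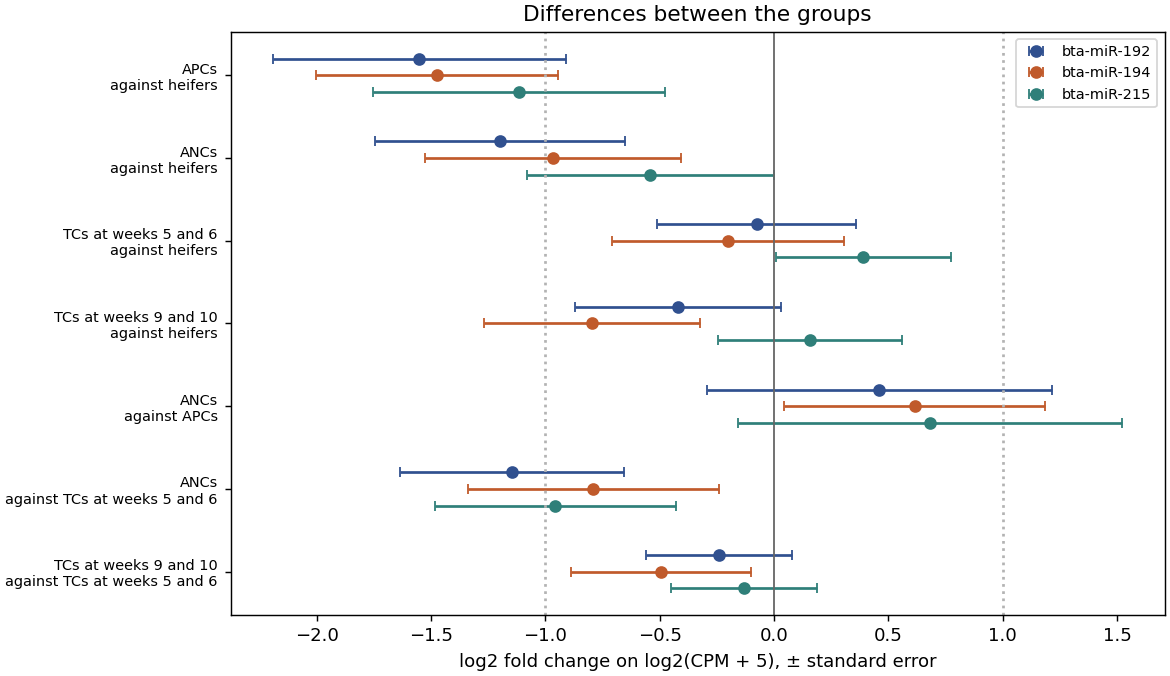
Log2 fold change of each member in the 7 comparisons, with bars of 1 standard error from the limma fit of all miRNAs tested and dotted lines at an absolute value of 1. bta-miR-192, bta-miR-194 and bta-miR-215 lie below 0 in APCs and in ANCs against heifers (-1.55 to -0.54), whereas bta-miR-215 lies above 0 in both TC groups against heifers (0.39 and 0.16).

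Among the cows, the comparison of ANCs with TCs at weeks 5 and 6 gave lower values for all members. The log2 fold change was -1.15 (SE 0.49) for bta-miR-192, -0.79 (SE 0.55) for bta-miR-194 and -0.96 (SE 0.53) for bta-miR-215. The ANC and TC pools of bta-miR-192 did not overlap, which was true of 26.2% of all miRNAs tested. In the other two comparisons among cows no member was separate, where 44.9% were between ANCs and APCs and 13.8% between the TC times. Without replicate 1 of the ANCs these values came to -0.52 for bta-miR-192 and -0.22 for bta-miR-215, and without replicate 2 to -1.78 and -1.70. ANCs against APCs gave 0.46 (SE 0.75), 0.62 (SE 0.57) and 0.68 (SE 0.84) for bta-miR-192, bta-miR-194 and bta-miR-215, with errors near or above the size of the difference. The sign of all 3 turned without replicate 2 of the ANCs, and that of bta-miR-192 and bta-miR-215 also without replicate 1 of the APCs. TCs at weeks 9 and 10 against weeks 5 and 6 gave -0.24 (SE 0.32), -0.49 (SE 0.39) and -0.13 (SE 0.32), and the last turned to 0.02 with total reads and to 0.0028 without replicate 1 at weeks 9 and 10. The same cows may have given fluid at both TC times, and the main fit did not pair them. limma called 0.0% of the miRNAs in each of these 3 comparisons, with 18, 16 and 13 at an unadjusted p-value under 0.05. edgeR called 0 in each and DESeq2 called 0, 6 and 1. Between the TC times, limma called 11% of all miRNAs without replicate 2 of weeks 5 and 6, with 0 members among them. Without any other single pool it called 0 there. The 0.0% between ANCs and APCs, and between ANCs and TCs, did not hold in every fit with a pool left out. Where it did not, a group was left with a single pool, and no member was called.

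The first replicates and the later ones differ in the day on which their RNA was measured, as recorded by the study, and the difference from heifers was not the same on both days. On the earlier day, with 1 pool per group, bta-miR-192 was higher in heifers by 7.86-fold against APCs, 5.47-fold against ANCs, 2.26-fold against TCs at weeks 9 and 10 and 1.17-fold against TCs at weeks 5 and 6. On the later day it was higher by 1.3-fold against the 1 ANC pool and by 1.12-fold and 1.13-fold against TCs at the later and earlier weeks. bta-miR-194 went from 4.42-fold against ANCs on the earlier day to 1.18-fold on the later. bta-miR-215 was 3.9 times as high in heifers as in ANCs on the earlier day and 0.702 times as high on the later, so its direction did not hold within both days. With the day in the fit, the log2 fold changes of ANCs against heifers were -1.17, -0.94 and -0.51 for bta-miR-192, bta-miR-194 and bta-miR-215. Without the day they were -1.20, -0.97 and -0.54. For TCs at weeks 5 and 6 they stayed at -0.08, -0.20 and 0.39. The day of the second APC pool was not recorded, so the day was not fitted for APCs. The cause of the unlike differences on the 2 days was not tested.

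The ratio of bta-miR-192 to bta-miR-215 reads within a library, which no scaling touches, was higher in heifers than in any cow pool. It was 3.81, 4.8 and 3.38 in heifers. In the cows it was 2.95, 3.22 and 2.46 in TCs at weeks 5 and 6, 2.71, 2.29 and 3.0 in TCs at weeks 9 and 10, 2.71 and 2.32 in ANCs, and 3.18 and 2.69 in APCs. The mean was 4.0 ± 0.728 in heifers (SD, n = 3) and 2.75 ± 0.332 in cows (n = 10). Heifers and cows did not overlap in 3.81% of the 28680 ratios that 240 miRNAs allow, and in 1 of the 3 ratios of the members. The levels themselves did not overlap in 3.64% of 247 miRNAs and in 0 of the members. The near identity of both sequences leaves the split of their reads uncertain, and its part in this ratio was not tested.

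**Figure D3:**
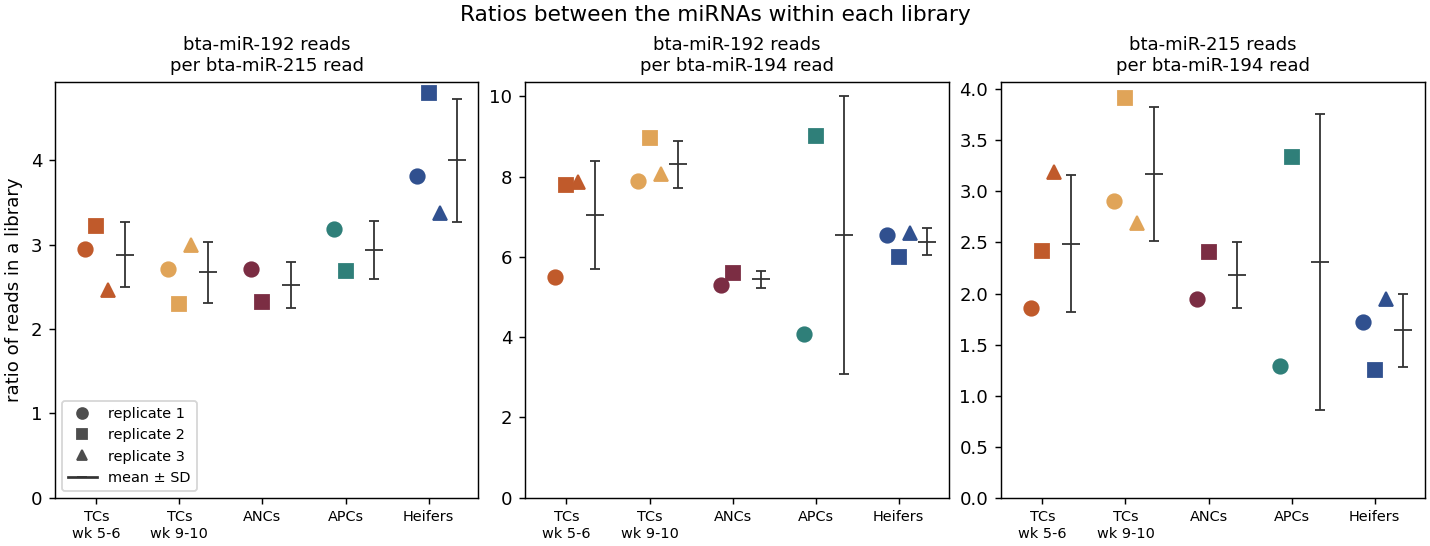
Reads of one member per read of another within each pool, by group. Each point is a pool, shapes are replicate numbers, and the bars show the mean ± SD of a group. The 3 heifer pools lie at 3.38 to 4.8 bta-miR-192 reads per bta-miR-215 read, above all 10 cow pools (2.29 to 3.22), while the ratios with bta-miR-194 overlap.

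The ratios with bta-miR-194 overlapped between heifers and cows. bta-miR-192 reads per bta-miR-194 read ran from 5.99 to 6.6 in heifers and from 4.09 to 9.0 in cows, with both ends in the APCs. TCs at weeks 9 and 10 lay at 7.88 to 8.97 and ANCs at 5.29 and 5.59. bta-miR-215 reads per bta-miR-194 read ran from 1.25 to 1.95 in heifers and from 1.29 to 3.92 in cows.

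The members rose and fell together over the 13 libraries. Pearson's r of the log2 levels was 0.938 between bta-miR-192 and bta-miR-215 (Spearman's rho 0.835), 0.918 between bta-miR-192 and bta-miR-194 (rho 0.923) and 0.796 between bta-miR-194 and bta-miR-215 (rho 0.874). For bta-miR-192 and bta-miR-215 the nearest of all 246 other miRNAs was the other one, and for bta-miR-194 it was bta-miR-192. The 2 libraries farthest from the median of the member named first were then left out of each pair. Without the first ANC and APC pools, r was 0.745 between bta-miR-192 and bta-miR-215 and 0.935 between bta-miR-192 and bta-miR-194. Without replicate 1 of the APCs and of the TCs at weeks 5 and 6, r was 0.704 between bta-miR-194 and bta-miR-215. In the 10 cow pools it was 0.982, 0.89 and 0.854, and with group means removed 0.961, 0.889 and 0.794. These libraries share their pools, depth and scaling, and bta-miR-192 and bta-miR-215 may share reads, so r is a description.

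**Figure D4:**
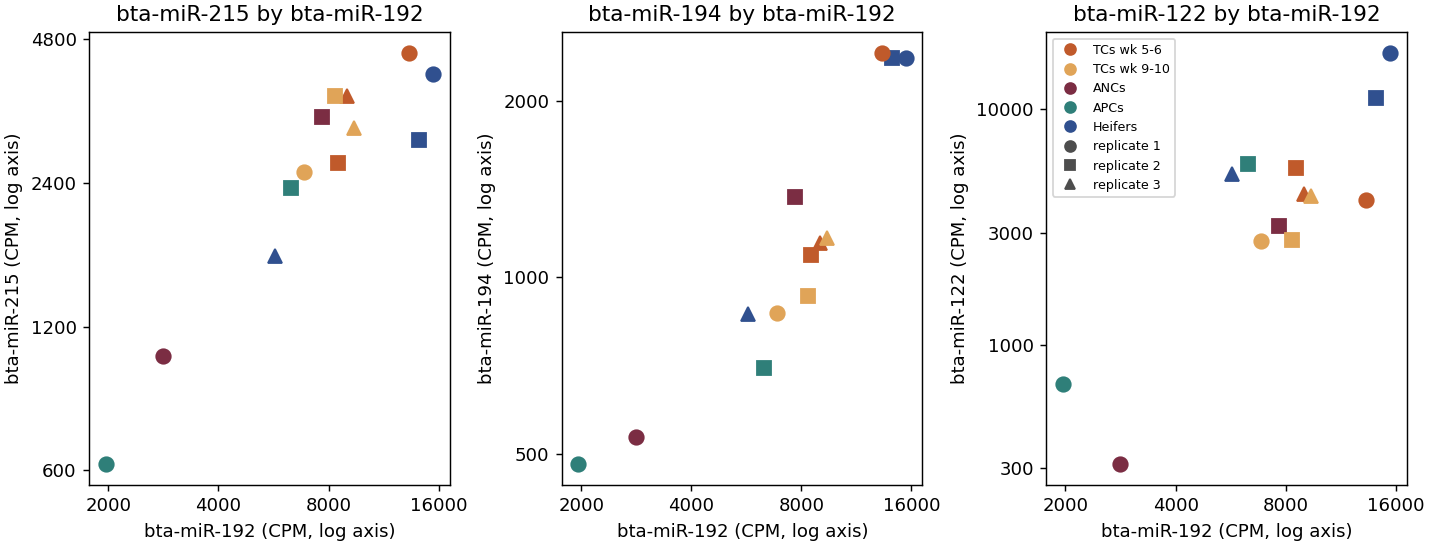
Levels of bta-miR-215, bta-miR-194 and bta-miR-122 against bta-miR-192 in each of 13 pools, in CPM on log axes. Colours are groups and shapes are replicate numbers. The first ANC and APC pools sit at the low end of all 3 plots, and the heifer pools lie below cow pools of like bta-miR-192 level in the plot of bta-miR-215.

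Beyond the members, the miRNA nearest to bta-miR-192 was bta-miR-122, the leading miRNA of hepatocytes (r = 0.864), followed by bta-miR-1388-3p (0.787) and bta-miR-2284w (0.774). bta-miR-215 was nearest to bta-miR-2284w (0.762), bta-miR-122 (0.735) and bta-miR-1388-3p (0.659). bta-miR-194 was nearest to bta-miR-196b (0.896) and bta-miR-196a (0.825), which lie in the HOX gene clusters, and then to bta-miR-122 (0.758). The likeness of bta-miR-122 rested in part on few pools: without the first ANC and APC pools its r fell to 0.609 with bta-miR-192 and to 0.063 with bta-miR-215. Of the 246 other miRNAs, 7, 6 and 4 reached an r of 0.7 with bta-miR-192, bta-miR-194 and bta-miR-215, and the median r was -0.04, -0.01 and -0.07. The blood cell miRNAs bta-miR-451 and bta-miR-223 reached 0.121 and 0.362 with bta-miR-192.

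**Figure D5:**
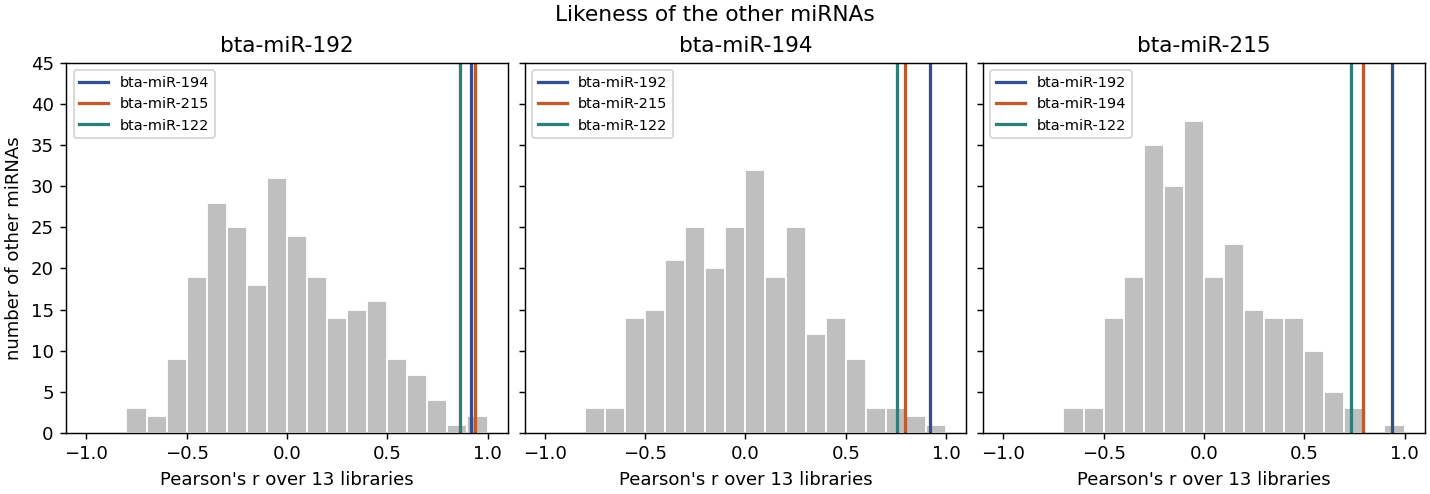
Histograms of Pearson's r of log2 level over 13 libraries between each member and all 246 other miRNAs, with the number of miRNAs on the vertical axis. Coloured lines mark the other members and bta-miR-122, which lie at the upper end (bta-miR-122 at 0.864, 0.758 and 0.735), whereas the medians of all lie between -0.07 and -0.01.

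bta-miR-122 was at 17370, 11200 and 5337 CPM in heifers. It was at 4106, 5618 and 4366 CPM in TCs at weeks 5 and 6 and at 2772, 2780 and 4272 CPM in TCs at weeks 9 and 10. In ANCs it was at 312.3 and 3187 CPM and in APCs at 685.6 and 5858 CPM. Its high pools were heifer replicates 1 and 2 and its low pools the first ANC and APC replicates, as for bta-miR-192. bta-miR-122 and the lists of miRNAs that follow were chosen with earlier results of these data known, so their adjusted p-values are a description. bta-miR-122 fell in ANCs against heifers, by a log2 fold change of -3.32 (SE 0.83, adjusted p = 0.0499, limma). The other comparisons with heifers gave -2.27 in APCs (SE 0.91, adjusted p = 0.281), -1.10 in TCs at weeks 5 and 6 (SE 0.44, adjusted p = 0.261) and -1.67 in TCs at weeks 9 and 10 (SE 0.48, adjusted p = 0.344). In a pooled fluid, fewer EVs from a cell type and less of the miRNA per EV cannot be told apart.

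Of a list of 11 other miRNAs found in liver, gut or kidney epithelium, bta-miR-122 included, 9 were tested in each comparison with heifers. The list is not specific to these organs, as some of its miRNAs are shared by epithelial cells elsewhere. In ANCs 4 fell and 0 rose, where 27 of all 215 miRNAs tested were called lower and 14 higher. The 4 were bta-miR-122, and bta-miR-200b, bta-miR-200c and bta-miR-141, which keep epithelial cells epithelial. The log2 fold change was -1.59 (SE 0.38) for bta-miR-200b, -1.61 (SE 0.37) for bta-miR-200c (adjusted p = 0.0468 for both) and -1.12 for bta-miR-141 (SE 0.48, adjusted p = 0.208), in limma. Without replicate 1 of the ANCs bta-miR-122 and bta-miR-141 were no longer called, and bta-miR-141 lost its call in 10 of 16 alternatives. In APCs bta-miR-204, a miRNA of kidney and eye epithelium, fell (-1.40, SE 0.36, adjusted p = 0.077), a call lost without replicate 1 or 2 of the heifers. In TCs at weeks 5 and 6 bta-miR-204 fell (-1.62, SE 0.29, adjusted p = 0.149) and bta-miR-375, known from pancreatic islets, rose (1.26, SE 0.41, adjusted p = 0.24), and in TCs at weeks 9 and 10 limma called 0 of the list. Both calls at weeks 5 and 6 were lost with the measurement day in the fit and without any 1 of the 4 pools named above, and that of bta-miR-375 was lost in 10 of 17 alternatives. The median log2 fold change of the list was -0.97 in ANCs, 0.08 in APCs, -0.20 and -0.77 in TCs at the earlier and later weeks, against medians of -0.01, 0.03, 0.01 and 0.01 over all miRNAs tested.

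Of 10 other miRNAs linked to p53, 9 were tested, and most did not pass the test. bta-miR-107 rose in APCs against heifers (2.41, SE 0.49, adjusted p = 0.0527) and bta-miR-145, a miRNA of smooth muscle and stroma, rose in TCs at weeks 5 and 6 (1.18, SE 0.23, adjusted p = 0.148), both in limma. The call of bta-miR-107 was lost without replicate 1 of the heifers, and that of bta-miR-145 in 7 of 17 alternatives, among them the fit with the measurement day. In ANCs and in TCs at weeks 9 and 10 limma called 0 of 9. The median of the list was 0.61 in APCs, -0.15 in ANCs and 0.21 and 0.03 in TCs at the earlier and later weeks.

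Markers of blood cells and of the follicle were read beside these results. Of 7 blood cell miRNAs, 5 were tested in ANCs against heifers. bta-miR-144 was listed for heifers alone. bta-miR-142-3p did not pass the filter on low reads, at 7.525 and 51.05 CPM in ANCs and 9.742, 14.16 and 21.43 CPM in heifers. All 5 tested fell, where 27 of all 215 miRNAs were called lower and 14 higher. In limma they ran from -3.86 for bta-miR-451 of red cells (SE 0.85, adjusted p = 0.0468) to -2.17 for bta-miR-142-5p (SE 0.50, adjusted p = 0.0468). bta-miR-223 of myeloid cells was at -2.81 (SE 0.49, adjusted p = 0.0454), bta-miR-150 at -2.49 and bta-miR-486 at -2.46. The call of bta-miR-486 was lost without replicate 1 of the ANCs or of the heifers, and the other 4 kept theirs in all 16 alternatives. Of these, bta-miR-223 alone was called in TCs at weeks 5 and 6 (-1.76, SE 0.36, adjusted p = 0.149), a call lost with the measurement day in the fit and without any 1 of the same 4 pools, and limma called 0 in APCs and in TCs at weeks 9 and 10. The 6 of 7 blood cell miRNAs listed for every group summed to 534.3 to 2516 CPM in ANCs, 4876 to 7682 in heifers, 5297 to 11380 in APCs, 2866 to 8014 in TCs at weeks 5 and 6 and 3943 to 14430 in TCs at weeks 9 and 10, with none at 0 throughout. The follicle miRNAs, 6 of 7 listed, summed to 10780 to 12350 CPM in ANCs, 4893 to 13300 in APCs, 5078 to 14880 in heifers and 5055 to 10330 and 5441 to 10130 in TCs. In ANCs against heifers 3 of them rose (bta-miR-424-5p at 1.64, bta-miR-450b at 1.04 and bta-miR-542-5p at 1.36) and bta-miR-132 fell (-3.62), but without replicate 1 of the ANCs none of the 4 was called. The part of blood cell or follicle miRNAs in the levels of bta-miR-192, bta-miR-194 and bta-miR-215 was not tested.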

How the data were processed

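EV-coupled small RNA of 13 follicular fluid pools was analysed, with groups taken from the labels. According to the submitters' notes, libraries were trimmed with cutadapt 1.11 and mapped with Bowtie2 2.2.2 to UMD3.1, with 1 mismatch allowed in the first 32 bases per the study's methods. The authors annotated reads against miRBase and deposited 1 TMM-normalized CPM value per miRNA and library; for some libraries the deposited values were recorded as signal, because totals scaled by TMM can pass what CPM sums to. The values are not logged.

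The steps between low values gave whole reads, and all 3681 of 3681 values came out whole within 0.1 read. miRNAs listed for both groups of a comparison were filtered with filterByExpr of edgeR 4.0.16 (minimum count 10, minimum total 15), scaled with TMM and fitted with limma 3.58.1, with a mean-variance trend, on log2(CPM + 5), in R 4.3.3. Fold changes are on that scale. P-values were adjusted over all miRNAs tested. edgeR and DESeq2 1.42.0 on recovered reads, other scalings, pseudocounts, no filter, a replicate block, the measurement day and each pool left out were tried. The procedure was tested on simulated data. No pools of a group matched within sampling noise.

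Replicate numbers were checked for pairing by correlating deviations from the group means. All 3 correlations were positive between TCs at weeks 5 and 6 and heifers (0.216, 0.377 and 0.386), and in no other comparison with 3 pairs. With 2 pairs, ANCs and APCs gave 0.217 and 0.217. TCs and heifers are different animals and the labels give no pairing, and the main fits left the replicate numbers out. The members and lists were chosen with earlier results of these data known. Named were the members, the 5 miRNAs nearest to each, list miRNAs called against heifers, and bta-miR-122, bta-miR-451 and bta-miR-223. No sequences are shown.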

Additional observations from a re-analysis of the deposited data

How the results depend on the processing

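Of the fold changes of the members, 331 recomputed values shifted by less than the spread between replicates and 5 shifted by more. Changes of sign and of size are among the 331. That of bta-miR-215 in ANCs against heifers went from -0.54 to 0.23 without replicate 1 of the ANCs. That of bta-miR-192 in APCs against heifers went from -1.55 to -0.67 without replicate 1 of the APCs. Of the counts of members called, 97 stayed and 15 moved. For APCs against heifers the count of members called, 1 in limma, came to 3 with total reads, 2 with 1 fit over all 5 groups, 2 with DESeq2 and 3 with a replicate block, where 27%, 12.6%, 13.7% and 17.6% of all miRNAs were called. For ANCs against heifers it went from 0 to 1 with total reads, 1 with a pseudocount of 20 CPM, 2 with a replicate block and 1 with the measurement day in the fit, where 43, 40, 64 and 44 of all 215 miRNAs were called. The replicate numbers did not pair the pools in either comparison (correlations of 0.187 and -0.035, and of 0.021 and 0.056), and the block changed the members called in no other comparison. Leaving out 1 pool gave 0 to 3 members for APCs and 0 to 2 for ANCs against heifers. It also gave log2 fold changes of bta-miR-215 from -2.08 to -0.12 for APCs against heifers and from -1.70 to -0.22 for ANCs against TCs at weeks 5 and 6, and of bta-miR-192 from -1.78 to -0.52 in the latter. Where 1 pool then stood alone, it was assumed to vary like the other group. The cause of these shifts was not tested. The day could not be fitted for comparisons with APCs, since 1 pool has no recorded day. With 2 or 3 pools per group the spread between pools, not the depth, limits these comparisons.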
